A study of Homo sapiens with 2 samples.

Results

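Ribosome biogenesis and nucleolar genes encode the proteins that transcribe, modify, cut and fold ribosomal RNA and load it with ribosomal proteins. The 38 genes described here were chosen by symbol and looked up in a GRCh37 annotation, and all 38 were found among the 63677 gene IDs of the count tables. RNA was sequenced from MDA-MB-231 cells, a line of human breast cancer that lacks hormone receptors. The CCE group is 1 library of cells given Carpesium cernuum extract, a plant extract, at 1 µg/mL for 24 h. The control group is 1 library of cells labelled as control, and since the treatment text stands on both samples, the sources used here do not say what those cells received. Genes held 34884501 counts in the CCE library and 5633569 in the control library, so 1 count was worth 0.0283 scaled counts per 1e+06 (CPM) in the CCE library and 0.180 CPM in the control library. With 1 library per group no test was possible. Each ratio is CCE over control and carries an exact 95% Clopper-Pearson interval, which covers counting error and says nothing about how cultures vary. Of the markers of this line, VIM had 1801 CPM in the CCE library and 3739 CPM in the control library, CD44 616 and 767, EGFR 380 and 436, AXL 323 and 622, and CAV1 158 and 339. Of the genes that should be low or absent, ESR1 had 0 counts in both libraries, CDH1 and KRT20 had 1 count in the CCE library and 0 in the control library, PGR 6 and 0, and PTPRC 11 and 2.

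Ribosomes are built in the nucleolus. RNA polymerase I transcribes a long precursor, on which the small subunit processome assembles while small nucleolar ribonucleoproteins (snoRNPs) guide methylation and pseudouridylation. The precursor is then cut, and the small and large subunits mature apart on separate sets of assembly factors. The MYC transcription factor is a well-known activator of many of these genes, and growing tumour cells express them strongly.

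Few of these genes differed by much, but most leaned the same way. Together the 38 genes took 0.614% of gene counts in the CCE library (95% interval 0.612 to 0.617) and 0.512% in the control library (0.506 to 0.518). In bulk RNA, a change in the share of cells and a change in RNA per cell cannot be told apart. All 38 were measured, that is, had a mean of at least 1 CPM. The main call asked for a ratio past 2-fold with an interval that left out 1. By it 1 of the 38 genes (2.63%), PPAN, was higher in the CCE library, against 3.26% of the 11637 measured protein-coding genes and 4.36% of all 14424 measured genes, and 0 were lower, against 4.33% and 4.92%. The share called at 2-fold is thus near the background and is no result about these genes. At the second, 1.5-fold threshold 7 (18.4%) were higher, against 11.5% of protein-coding and 12.1% of all measured genes, and 0 were lower, against 10.9% and 11.3%. The interval lay wholly above a ratio of 1 in 26 genes (68.4%), against 32.7% and 30.1%, and wholly below it in 4 (10.5%), against 26.6% and 25.1%. Whether an interval leaves out 1 depends also on a gene's counts, which were not matched between the 38 genes and the background. The log2 ratio was above 0 in 31 of the 38 (81.6%), against 54.4% and 53.9%. The median log2 ratio was 0.26 over the 38 genes and 0.05 over measured protein-coding genes. The ratios ran from -0.32 for UTP18 to 1.58 for PPAN.

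**Figure D1:**
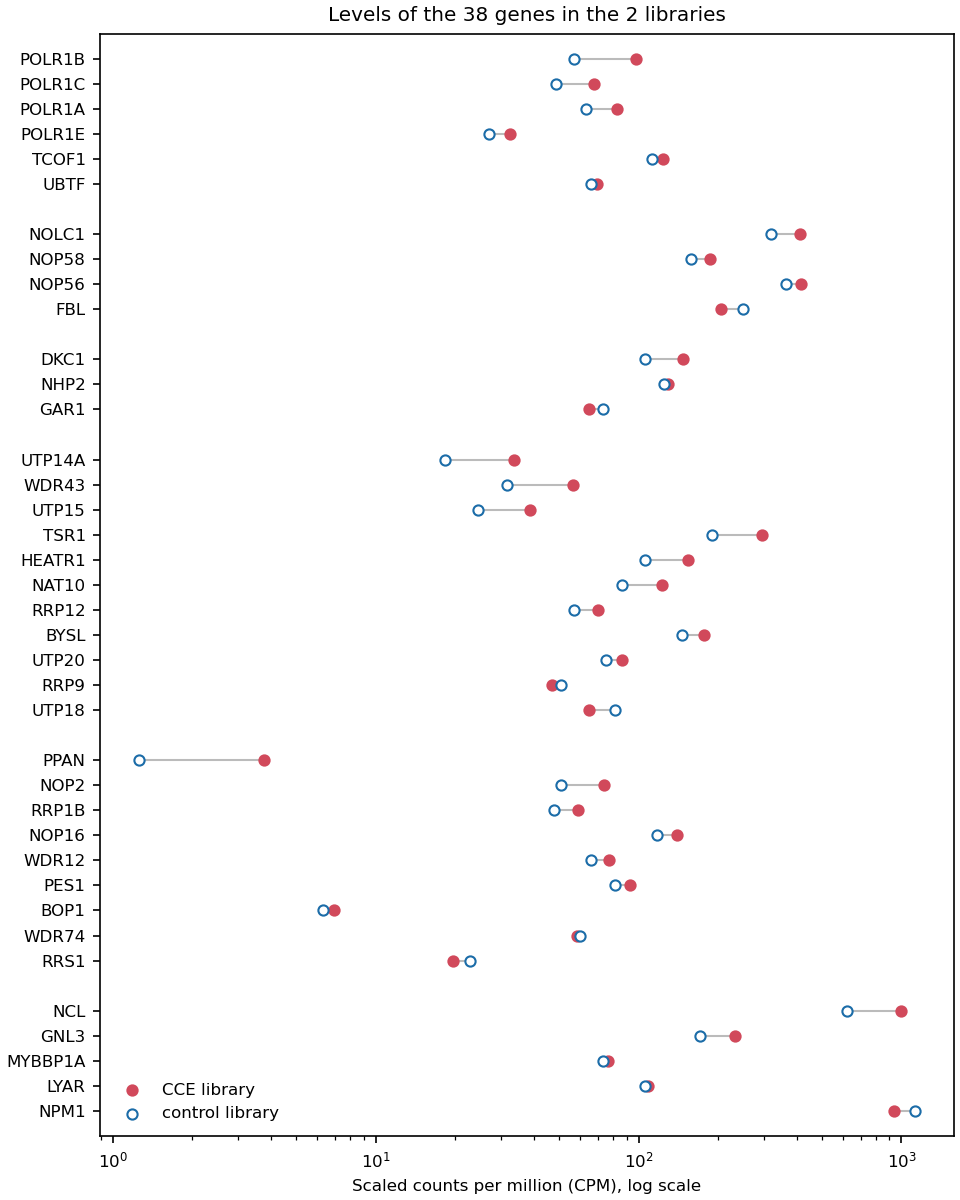
Level of each of the 38 genes in the CCE library (filled) and the control library (open), in CPM on a log axis, grouped by role. NCL and NPM1 lie at the right, at 998 and 933 CPM in the CCE library, with the CCE library higher for NCL and lower for NPM1.

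Sequences upstream of these genes were looked at because MYC and related factors bind the E-box CACGTG, a hexamer that reads the same on both strands. RefSeq promoter windows (GRCh38.p14, from 250 bases before to 50 after an annotated start) were found for 30 of the 38 genes, and 8 had no entry: BOP1, NOLC1, NOP58, POLR1E, RRP12, RRP1B, RRS1 and TCOF1. CACGTG stood in a window of 14 of the 30 genes (46.7%) and of 10.9% of 15843 protein-coding genes. Of the 14 genes with CACGTG, 10 had a log2 ratio above 0 and 4 below, and 31 of all 38 were above 0. The windows below are a selection from both sides, with CACGTG in capitals and the position of its first base counted from the start (1).
UTP14A (chrX:129905914-129905940, plus strand, position -241): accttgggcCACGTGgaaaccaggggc
WDR43 (chr2:28894658-28894687, plus strand, position 4): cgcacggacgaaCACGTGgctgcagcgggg
NOP2 (chr12:6568242-6568268, minus strand, position 36): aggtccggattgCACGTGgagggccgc
GAR1 (chr4:109815781-109815810, plus strand, position 32): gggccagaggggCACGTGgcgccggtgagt
FBL (chr19:39846356-39846385, minus strand, position 7): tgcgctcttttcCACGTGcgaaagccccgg
UTP18 (chr17:51260445-51260474, plus strand, position -89, with another at 5 outside the bases shown): gggagtgctggtCACGTGgcaagaggctgc

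The 14 genes with the hexamer had a median log2 ratio of 0.19 (range -0.32 to 0.87), and the 16 matched genes without it had 0.44 (-0.27 to 1.58). Of the 7 genes called higher at 1.5-fold, 2 had the hexamer and 5 did not. A match is a description of these letters in this window, and no match says nothing about a factor.

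Median ratios by role ran from 0.05 to 0.51 on the log2 scale, as the plot of ratios by role shows. The 11 genes of the small subunit had the highest median, 0.51, and 4 of them were called higher at 1.5-fold (36.4%, against 11.5% of protein-coding genes), of which UTP15 and TSR1 did not pass with the GC trend removed. The 6 genes of RNA polymerase I transcription had 0.33, the 9 of the large subunit 0.22, the 4 of box C/D snoRNPs 0.21, the 5 multifunctional nucleolar genes 0.07 and the 3 of H/ACA snoRNPs 0.05. No test was made between these groups, and their ranges overlapped.

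**Figure D2:**
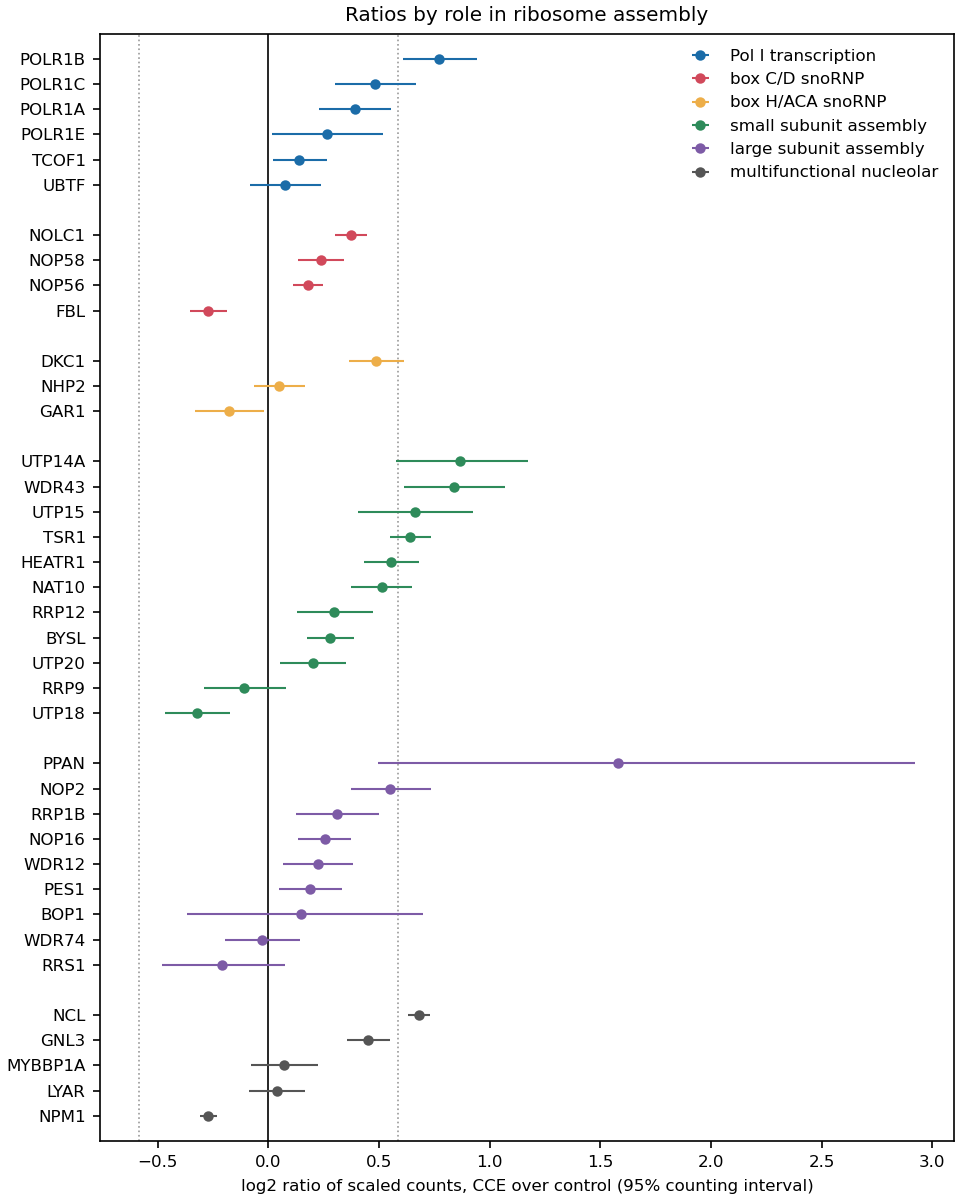
Ratio of CCE to control scaled counts, as log2, for each gene by role, with its 95% counting interval; dotted lines mark 1.5-fold. Genes of the small subunit include both UTP14A at 0.87 and UTP18 at -0.32, and every gene of RNA polymerase I transcription lies above 0.

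Of the transcription group, POLR1B, which encodes the second-largest, catalytic subunit of RNA polymerase I, was higher by the 1.5-fold call. It lies on chromosome 2 from 113299492 to 113337395 (GRCh37, plus strand). It had 3442 counts in the CCE library and 317 in the control library, or 97.4 and 57.0 CPM, a ratio of 1.71 (1.52 to 1.92). The other subunits had smaller ratios. POLR1A, the gene of the largest subunit, had 82.5 CPM in the CCE library and 62.9 CPM in the control library, a ratio of 1.31 (1.17 to 1.47). POLR1C, of a subunit shared with RNA polymerase III, had 67.8 and 48.6 CPM, a ratio of 1.40 (1.23 to 1.59), and POLR1E 32.4 and 27.0 CPM, a ratio of 1.20 (1.01 to 1.43). All 4 subunit genes were thus higher in count with intervals above 1, and POLR1B passed 1.5-fold. The other 2 genes of this group encode factors that act with the polymerase. UBTF, of the upstream binding factor, had 69.5 CPM in the CCE library and 66.0 CPM in the control library, with an interval that spanned 1 (0.943 to 1.18). TCOF1, of the nucleolar protein treacle, had 123 and 112 CPM, a ratio of 1.10 (1.01 to 1.20).

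The snoRNP genes did not move as a block. FBL, which encodes fibrillarin, the methyltransferase of box C/D snoRNPs, had 7304 counts in the CCE library and 1388 in the control library, or 207 and 250 CPM, a log2 ratio of -0.27 (-0.36 to -0.19). Its partners NOP56 and NOP58, which form the scaffold of the same particle, lay on the other side of 0. NOP56 had 413 CPM in the CCE library and 365 CPM in the control library, a ratio of 1.13 (1.08 to 1.19), and NOP58 had 187 and 159 CPM, a ratio of 1.18 (1.10 to 1.27). Within a library, where scaling plays no part, and for a pair chosen after the values were seen, NOP56 held 66.7% of the summed NOP56 and FBL counts in the CCE library and 59.4% in the control library. The NOP56 count per FBL count was 1.37 times as high in the CCE library (95% counting interval 1.27 to 1.47). NOLC1, a chaperone of snoRNPs, had 413 CPM in the CCE library and 319 CPM in the control library, a ratio of 1.29 (1.23 to 1.36).

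The H/ACA particle, which pseudouridylates RNA and also belongs to telomerase, showed the same kind of split. DKC1, of the catalytic subunit dyskerin, had 5215 counts in the CCE library and 586 in the control library, or 148 and 105 CPM, a ratio of 1.40 (1.29 to 1.53). NHP2, of a core protein of the particle, had 130 CPM in the CCE library and 126 CPM in the control library, with an interval that spanned 1 (0.955 to 1.12), and shares 28.0% of its merged exon length with RMND5B on the opposite strand. GAR1, of another core protein, had 64.7 CPM in the CCE library and 73.2 CPM in the control library, a log2 ratio of -0.18 (-0.33 to -0.02). There were 2.28 DKC1 counts for each GAR1 count in the CCE library and 1.44 in the control library, a difference of 1.58 times (1.38 to 1.82) for a pair chosen in the same way.

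UTP14A, of a processome protein that activates a helicase late in assembly in yeast, lies on chromosome X from 129040097 to 129063737 (GRCh37, plus strand). It had 1183 counts in the CCE library and 102 in the control library, or 33.5 and 18.3 CPM, a ratio of 1.82 (1.49 to 2.26). Its intronless copy UTP14C, not among the 38 genes, had 1038 and 80 counts, so the split of reads between the copies is uncertain; summed, they had a log2 ratio of 0.94 (0.72 to 1.17). WDR43, of the UTP-A complex that joins the nascent precursor first, had 1988 counts in the CCE library and 175 in the control library, or 56.2 and 31.5 CPM, a ratio of 1.79 (1.53 to 2.10). UTP15, of the same complex, had 38.7 CPM in the CCE library and 24.5 CPM in the control library, a ratio of 1.58 (1.33 to 1.90). TSR1, of a GTPase-like factor of late cytoplasmic maturation, had 296 and 190 CPM, a ratio of 1.56 (1.46 to 1.66). It shares 23.9% of its merged exon length with SRR on the opposite strand, which had a log2 ratio of 0.28.

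Below 1.5-fold came HEATR1, a further UTP-A gene, with 155 CPM in the CCE library and 105 CPM in the control library, a ratio of 1.47 (1.35 to 1.60); it shares 23.1% of its merged exon length with LGALS8 on the opposite strand. NAT10, of the enzyme that acetylates cytidines in ribosomal RNA, had 123 and 86.3 CPM, a ratio of 1.43 (1.30 to 1.57). RRP12, BYSL and UTP20, of factors that act on the maturing small subunit, had ratios of 1.23, 1.21 and 1.15, each with an interval above 1. At the other end, UTP18, of the UTP-B complex, had 2297 counts in the CCE library and 452 in the control library, or 65.0 and 81.3 CPM, a log2 ratio of -0.32 (-0.47 to -0.17). RRP9, the U3-specific protein of the processome, had 46.9 CPM in the CCE library and 50.5 CPM in the control library, with an interval that spanned a ratio of 1 (0.817 to 1.06).

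Some of these proteins work in named complexes, which were grouped after the values were seen, so what follows is a description. The UTP-A genes outside the 38 had log2 ratios of 0.80 for WDR75 (0.65 to 0.97), 0.28 for NOL11 and 0.09 for UTP4. The UTP-B genes outside the 38 had 0.73 for WDR3, 0.36 for PWP2, 0.27 for WDR36, 0.26 for UTP6 and -0.10 for TBL3. Values of these other subunits overlapped between both complexes, and no difference between the complexes was tested. Over all 6 genes of each, the median was 0.61 for UTP-A and 0.26 for UTP-B. The 8 subunit genes of RNA polymerase I all lay above 0 by counts, against 54.4% of measured protein-coding genes, from 0.19 for POLR1H to 0.77 for POLR1B. By the authors' FPKM values POLR1B, POLR1F and POLR1G were lower in the CCE library and the other subunits were higher. POLR1F was listed at 3.14 FPKM in the CCE library and 16.6 FPKM in the control library, and POLR1G at 17.0 and 34.4 FPKM. The 3 genes of the PeBoW complex of the large subunit lay close together, at 0.22 for WDR12, 0.19 for PES1 and 0.15 for BOP1.

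**Figure D3:**
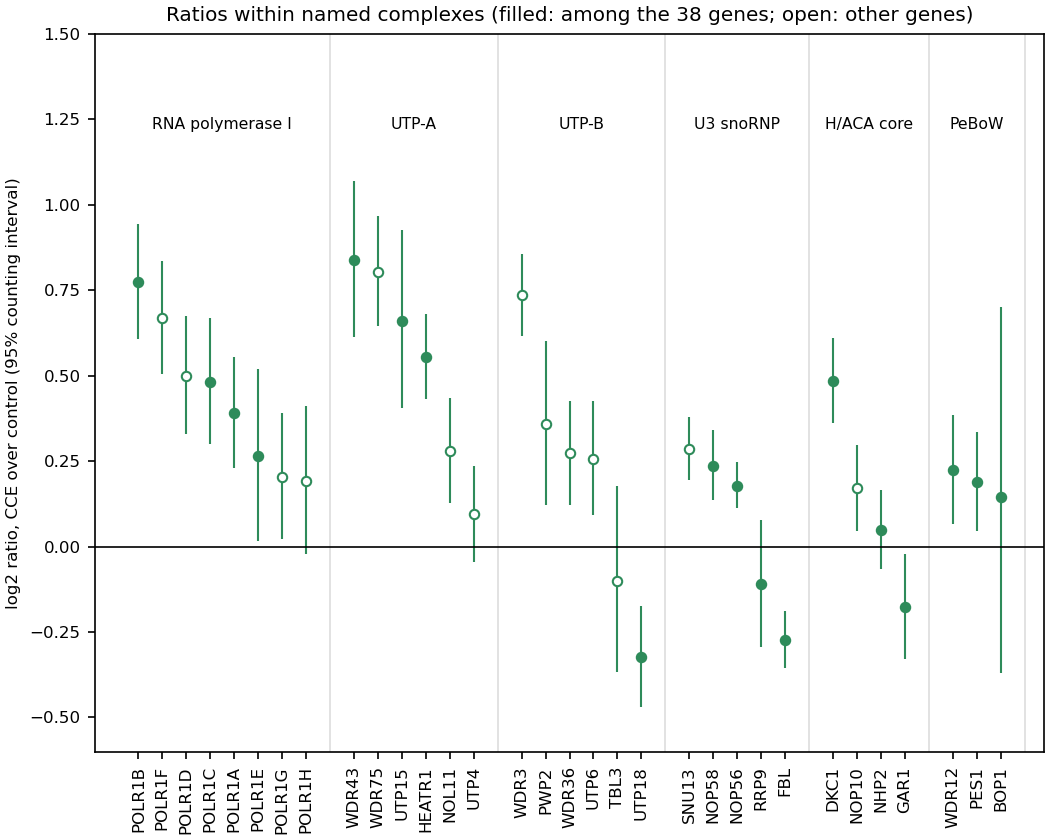
log2 ratio, CCE over control, of each gene in 6 named complexes, with its 95% counting interval; filled points are among the 38 genes and open points are other genes. Every RNA polymerase I and UTP-A gene lies above 0, while UTP-B, the U3 snoRNP and the H/ACA core have genes on both sides.

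Of the 9 large subunit genes, PPAN alone was called higher at 1.5-fold (11.1%, against 11.5% of protein-coding genes). That share is near the background and is no result about this group. PES1 and WDR12, of PeBoW, which is needed to cut the precursor on the large subunit side, had ratios of 1.14 (1.03 to 1.26) and 1.17 (1.05 to 1.30). PES1 had 92.4 CPM in the CCE library and 81.1 CPM in the control library, and WDR12 had 77.2 and 66.2 CPM. There were 0.836 WDR12 counts per PES1 count in the CCE library and 0.816 in the control library, and the quotient of these had an interval from 0.882 to 1.19. BOP1, their partner, had only 246 and 35 counts, and its interval spanned 0.774 to 1.62. NOP2, of a methyltransferase of large subunit RNA, had 74.0 CPM in the CCE library and 50.5 CPM in the control library, a ratio of 1.46 (1.29 to 1.66). NOP16 and RRP1B had ratios of 1.19 and 1.24 with intervals above 1. WDR74 had a log2 ratio of -0.03 (-0.20 to 0.14), which crossed 0, to 0.01, when libraries were scaled by total counts. RRS1 had -0.21, with an interval from -0.48 to 0.08.

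PPAN, of a large subunit factor related to yeast SSF1, was the single gene past 2-fold, but on few reads. It had 133 counts in the CCE library and 7 in the control library, or 3.76 and 1.26 CPM, a ratio of 2.99 (1.41 to 7.58). It lies on chromosome 19 from 10217038 to 10222688 (GRCh37, plus strand) and shares 47.6% of its merged exon length with the read-through gene PPAN-P2RY11, which was listed at 0 counts in both libraries. Some records were marked ambiguous, and how reads of shared exons were counted is not known. The counts of both genes may leave out such reads and cannot be read as their levels. By the authors' FPKM values, PPAN was listed at 7.40 FPKM in the CCE library and 20.9 FPKM in the control library.

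Among the abundant nucleolar proteins, nucleolin and nucleophosmin parted. NCL encodes nucleolin, which binds ribosomal RNA precursors, and NPM1 encodes nucleophosmin, a chaperone of the granular nucleolus; together they held 31.8% of the counts of the 38 genes in the CCE library and 33.7% in the control library. NCL lies on chromosome 2 from 232318242 to 232348352 (GRCh37, minus strand). It had 35262 counts in the CCE library and 3464 in the control library, or 998 and 623 CPM, a ratio of 1.60 (1.55 to 1.66). NPM1, on chromosome 5 from 170814120 to 170838814 (plus strand), had 32972 and 6259 counts, or 933 and 1126 CPM, a log2 ratio of -0.27 (-0.31 to -0.23). Thus NCL counts outnumbered NPM1 counts 1.07 to 1 in the CCE library, while there were 0.553 NCL counts per NPM1 count in the control library. The quotients differed by 1.93 times (1.85 to 2.02), a value that no library scaling alters, for a pair chosen after the values were seen. By the authors' FPKM values NCL went the other way, at 7.29 FPKM in the CCE library and 182.6 FPKM in the control library. NPM1 was near level, at 503.7 and 499.6 FPKM.

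Levels between genes were compared per kilobase of merged exon. On that scale NPM1 had 112 CPM per kb in the CCE library and 135 in the control library, NCL 112 and 69.8, NOLC1 104 and 80.3, and FBL 96.7 and 117. NPM1 and NCL thus stood level in the CCE library on that scale. Per kilobase of the canonical transcript, a length added after seeing the data, NPM1 led in both libraries, at 707 CPM per kb in the CCE library and 853 in the control library, while NCL had 254 and 159, FBL 184 and 222, and NOLC1 111 and 85.6. The order of NCL among these genes therefore depends on the length used. The 49 annotated NPM1 pseudogenes summed to 2649 counts in the CCE library and 269 in the control library, 8.03% and 4.30% of the count of NPM1 itself. With them added, the log2 ratio of NPM1 was -0.22 (-0.26 to -0.18).

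The bases before the starts of NCL and NPM1 are shown since these abundant genes lay on opposite sides of a ratio of 1: 60 bases before each RefSeq start (GRCh38.p14), with the hexamer TATATA, which reads the same on both strands and stands in the windows of 4.25% of protein-coding genes, in capitals where it first occurs, at -27; an overlapping copy in NPM1 begins at -25. Of the 30 genes with a window, 2 (6.67%) held TATATA. These were NPM1, with a log2 ratio below 0, and POLR1A, with one of 0.39. A link between the hexamer and the ratios was not tested. Neither window of NCL or NPM1 held CACGTG.
NCL (chr2:231464485-231464544, minus strand): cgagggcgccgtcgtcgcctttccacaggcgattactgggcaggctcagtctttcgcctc
NPM1 (chr5:171387789-171387848, plus strand): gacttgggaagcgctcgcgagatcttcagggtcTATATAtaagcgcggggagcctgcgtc

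The remaining nucleolar genes lay between them. GNL3, of nucleostemin, a GTPase of proliferating cells, had 8245 counts in the CCE library and 949 in the control library, or 233 and 171 CPM, a ratio of 1.37 (1.28 to 1.46). MYBBP1A, of a nucleolar MYB-binding protein, had 76.8 CPM in the CCE library and 73.2 CPM in the control library, and LYAR, a zinc finger protein of the nucleolus, had 109 and 106 CPM. The intervals of both spanned 1 (0.946 to 1.17 and 0.941 to 1.12), and LYAR had a log2 ratio of -0.01 when scaled by upper quartile.

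Other genes of the pathway were taken from lists by role, not by how they moved. Earlier results of these data were known when the lists were made. Without the MYC network, 131 of 136 listed genes were measured, and 21 of them (16.0%) were at least 1.5-fold higher in the CCE library, against 11.5% of protein-coding genes, and 3 were lower, against 10.9%. With the GC trend removed 11 of the 131 were higher, and no share of protein-coding genes was counted in that setting. Their median log2 ratio was 0.21, and at 2-fold RCL1 alone was called. The small subunit list had 10 of 44 genes higher (22.7%) and 1 lower (median 0.28), among them RCL1, of a cleavage factor, at 1.53 (0.87 to 2.28), WDR75, WDR3 at 0.73 and the kinase gene RIOK2 at 0.72. The large subunit list had 9 of 54 higher (16.7%) and 2 lower (median 0.23), with the ATPase gene NVL at 0.80 (0.58 to 1.03), the helicase gene DDX27 at 0.79, URB2 at 0.76 and HEATR3, which carries a ribosomal protein to the nucleus, at -0.78 (-1.10 to -0.45). The other 2 genes called lower, TSR3 at -0.66 and WDR18 at -0.73, are named after their values were seen. The list of RNA polymerase I factors had 2 of 10 higher, TAF1C at 0.71 (0.41 to 1.02) and the subunit gene POLR1F at 0.67; the subunit gene POLR1D had 0.50 and the initiation factor gene RRN3 had 0.57. The snoRNP assembly list had 0 of 9 called, with SHQ1 at 0.52, SNU13 at 0.29, RUVBL2 at -0.28 and PIH1D1 at -0.39. The nuclear RNA exosome, which trims precursors, had 0 of 14 called and a median of -0.04, with EXOSC3 at 0.55, EXOSC4 at 0.39, MPHOSPH6 at -0.30 and EXOSC9 at -0.42. MYC itself had 216 CPM in the CCE library and 165 CPM in the control library, a log2 ratio of 0.39 (0.29 to 0.49), and its partner MAX had 0.35. The MYC antagonist genes MXI1 and MXD1, at 0.87 (0.64 to 1.12) and 0.72 (0.37 to 1.10), were the 2 of 9 network genes called higher. Other antagonist genes of the list had intervals below 0, MNT at -0.32 (-0.58 to -0.05) and MXD3 at -0.25 (-0.34 to -0.17), and are named after their values were seen.

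Gene structure moved with the result. Exons of 20 of the 38 genes overlapped those of another counted gene. They had a median log2 ratio of 0.37, with 6 called higher at 1.5-fold (30.0%, against 11.8% of overlapping protein-coding genes), and summed to 3385 CPM in the CCE library and 2514 CPM in the control library. The 18 genes with no such overlap had a median of 0.17, with WDR43 alone called higher (5.56%, against 11.1% of protein-coding genes without overlap), and summed to 2679 CPM in the CCE library and 2674 CPM in the control library. Over measured protein-coding genes the medians were 0.06 for 5720 genes with overlap and 0.04 for 5914 without. All 9 genes with small nucleolar or Cajal body RNA genes inside them had intervals above 1, a share not counted over all hosts. Their median was 0.49, and 4 were called higher at 1.5-fold (44.4%). The 312 measured protein-coding hosts had a median of 0.13, with 60.3% above 0 and 13.1% called higher. Of the 29 genes that host none, 3 were called higher (10.3%), near the 11.4% of protein-coding genes that host none. The part of overlap and hosting in the result was not tested. The hosted RNAs themselves were barely counted: 19 of 24 had 0 counts in both libraries, and all 24 summed to 15 counts in the CCE library and 0 in the control library.

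GC content moved with the ratios as well. Over 11634 measured protein-coding genes with counts in both libraries, the log2 ratio and exonic GC had Spearman's rho of -0.23, taken over genes of the same pair of libraries; over the 38 genes rho was -0.22. With merged exon length in place of GC, rho was 0.10 over the protein-coding genes and 0.36 over the 38. The median of protein-coding genes was 0.19 in the decile of lowest GC and -0.20 in that of highest GC. Relative to that trend 31 of the 38 genes lay above and 7 below, with a median of 0.26; LYAR, at -0.05, and RRP9, at 0.02, changed sides. Of the 38, 5 rather than 7 passed 1.5-fold: PPAN, UTP14A, WDR43, POLR1B and NCL. UTP15 and TSR1 did not. The share of protein-coding genes past 1.5-fold was not counted with the trend removed.

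**Figure D4:**
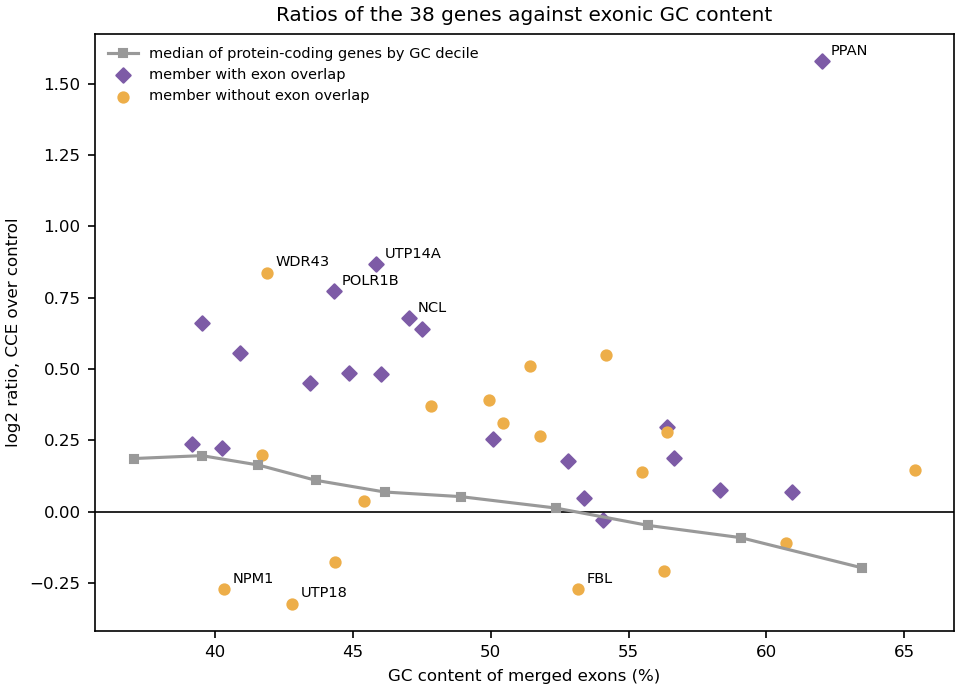
log2 ratio, CCE over control, of the 38 genes against the GC content of their merged exons; diamonds mark genes whose exons overlap another counted gene, and the grey line joins the medians of protein-coding genes by GC decile. The median line runs from 0.19 at low GC to -0.20 at high GC, and most of the 38 genes lie above it.

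The authors' FPKM values, summed per gene, did not give the same picture. Count and FPKM ratios had Spearman's rho of 0.25 over the 38 genes. It was 0.34 over 10930 measured protein-coding genes above 0 FPKM in a library, so the disagreement was not particular to the 38. On the log2(FPKM + 1) scale 18 of the 38 genes were above 0 and 19 below, HEATR1 was listed at 0 in both libraries, and 14 genes lay on the other side of 0 from their count ratio. NCL, given above, was among them. POLR1B was listed at 0.261 FPKM in the CCE library and 6.37 FPKM in the control library. UTP14A, WDR43, UTP15 and TSR1 were above 0 by both measures, with log2(FPKM + 1) differences of 0.88, 0.40, 0.22 and 0.49. FBL, GAR1 and UTP18 were below 0 by both.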

How the data were processed

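RNA-seq of 2 libraries, 1 per group, was used. Groups came from the treatment label of each sample. Per the submitters' processing notes, reads were handled with HISAT2, with hg19 and GRCh37 as builds; which program counted them, with which strand setting and annotation, and which made the FPKM values cannot be read from the sources used here, so reads of overlapping genes cannot be told apart by strand. The authors deposited raw counts per Ensembl gene. The 5 closing rows, which name no gene, held 66.8% of records in the CCE library and 62.9% in the control library, 1.36% and 1.59% of records being marked ambiguous, and were left out. The authors also deposited FPKM values with repeated gene IDs, which were summed per gene; their depth is unknown.

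Symbols, coordinates, merged exons and GC came from GENCODE 44 lifted to GRCh37, in which 55665 of 63677 IDs were found; 189 of 193 listed symbols matched. Libraries were scaled with TMM factors (edgeR 4.0.16, R 4.3.3; 1.01 for CCE, 0.987 for control). Log2 ratios, CCE over control, had no pseudocount; intervals came from the binomial share of a gene's reads that lay in the CCE library. Python 3.11.15 was used with pandas 2.3.3, scipy 1.17.1 and numpy 2.4.6. Since reads may be PCR copies of 1 molecule, the intervals reflect counting error alone. No p-value is given. The main call was 2-fold and the second 1.5-fold. The GC trend was a lowess curve (span 0.3, statsmodels 0.14.6) over measured protein-coding genes. Genes named were all 38, and up to 4 of each further list with the largest absolute log2 ratio and an interval excluding 1; the cell line markers were named as well. Members, lists and alternatives were chosen with earlier results of these data known. Protein composition was planned but not analysed here. The ratio and call procedure was tested on simulated counts with counting error alone, so that test says nothing about how cultures vary. Alternatives were scaling by DESeq2 1.42.0, by upper quartile or by total counts, scaling without mitochondrially encoded genes, FPKM with pseudocounts of 1 and 0.1, other filters, the GC trend removed, and subsets of the 38 genes.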

Additional observations from a re-analysis of the deposited data

How the results depend on the processing

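The median log2 ratio of the 38 genes lay between 0.17 and 0.30 under all scalings, filters, subsets and the GC trend, and fell to -0.030 (pseudocount 1) and -0.039 (0.1) by FPKM. Measured protein-coding genes had FPKM medians of -0.031 and -0.037, near those of the 38 genes. The share of all genes past each fold by FPKM was not counted. By FPKM at either pseudocount, 3 genes were at least 1.5-fold higher and 14 lower, and 2 were at least 2-fold higher and 10 lower; of the 7 genes called higher at 1.5-fold by counts, log2 ratios changed sign for NCL (-4.47 and -4.63), POLR1B (-2.55 and -4.16) and PPAN (-1.38 and -1.49). Over all 38 genes 14 lay on the other side of 0, among them NOP58 (-2.41 with a pseudocount of 1) and RRP12 (-1.84). The cause was not tested. The count at least 1.5-fold higher was 9 under total-count scaling, 7 under the other scalings, 5 with the GC trend removed, 1 among genes without exon overlap and 3 among genes that host no snoRNA. Over protein-coding genes this share was counted with TMM scaling alone: 11.5% of all, 11.1% without exon overlap and 11.4% without a hosted snoRNA. The count at least 2-fold higher was 0 at a mean of at least 5 CPM and in both subsets, which hold no PPAN. With the GC trend removed, 11 of the 131 other pathway genes were at least 1.5-fold higher, a share not counted over all genes. The median of the 131 was 0.15 in that setting, against 0.003 over protein-coding genes. No paired analysis was possible because each group has 1 library, and no replicate could be left out. The control library sets the precision: 3 counts were worth 0.540 CPM there and 0.0849 CPM in the CCE library.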
